A study of Caenorhabditis elegans with 2 samples.

Results

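The proteasome subunit genes of Caenorhabditis elegans were examined for binding of EFL-3, an atypical member of the E2F family of transcription factors. They were taken by name as every nuclear protein-coding gene whose symbol starts with pas-, pbs-, rpt- or rpn-, which gave 33 of 19973 genes. Chromatin immunoprecipitation with sequencing was done on whole larvae of the first larval stage (L1), 6 hours of age, of mixed sex and held without food after bleaching. The strain, OP344, has the allele unc-119(tm4063) and carries the transgene wgIs344, which holds efl-3 (F49E12.6) fused to TY1, EGFP and 3xFLAG tags beside a rescuing unc-119(+). The antibody was against GFP, so the peaks are those of the tagged protein made from the transgene, and the labels name no mutation of the endogenous efl-3. The design holds 1 group with 2 biological replicates and no second genotype or condition, and whole animals do not separate cell types.

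The proteasome degrades proteins that carry a chain of ubiquitin. Its core particle is a barrel of outer alpha rings (pas- genes) and inner beta rings (pbs- genes), and the beta rings hold the proteolytic sites. A regulatory particle caps the barrel. Its base has a ring of ATPases (rpt- genes) that unfold the substrate, and its other subunits (rpn- genes) receive ubiquitin chains, cut them off and hold the particle together. In C. elegans the transcription factor SKN-1A is known to raise proteasome gene expression when the proteasome fails.

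All peak lists were on the ce11 build. The lists of replicate 1, replicate 2 and the pooled replicates hold 30000 peaks each and reach far into weak signal. The reproducible set, thresholded by the authors, holds the 430 strongest peaks of the pooled list, with signal values of 94.8 or more. The signal value is the authors' peak score, has no unit and was read only within a list. A summit was counted for a gene when it fell in the promoter window, meaning up to 1000 bp before or 500 bp after an annotated transcript start of the gene. The read depth is unknown.

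EFL-3 peaks of the reproducible set were found at 3 of the 33 proteasome genes, namely rpn-3, pas-5 and rpn-11. The gene rpn-3 encodes a subunit of the lid of the regulatory particle, and pas-5 an alpha ring subunit. The deubiquitinating subunit, encoded by rpn-11, also belongs to the lid. These 3 genes made up 9.09% of the proteasome genes, and 1.94% of all protein-coding genes had such a summit. Most of the others had a weak pooled peak or none. In all, 22 of the 33 (66.7%) had a pooled summit in the window, against 43.7% of all genes. The median over the 33 of the largest pooled signal was 39.3, with genes lacking a peak set to 0, and over all genes it was 0. Among the 1000 strongest pooled peaks were those of 5 proteasome genes (15.2%), against 3.52% of all genes. The count of 3 depended on replicate 2. Among the 430 strongest peaks of replicate 1 alone only rpn-3 was found (3.03%, against 1.85% of all genes), while those of replicate 2 alone gave all 3 (9.09%, against 1.65%).

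**Figure D1:**
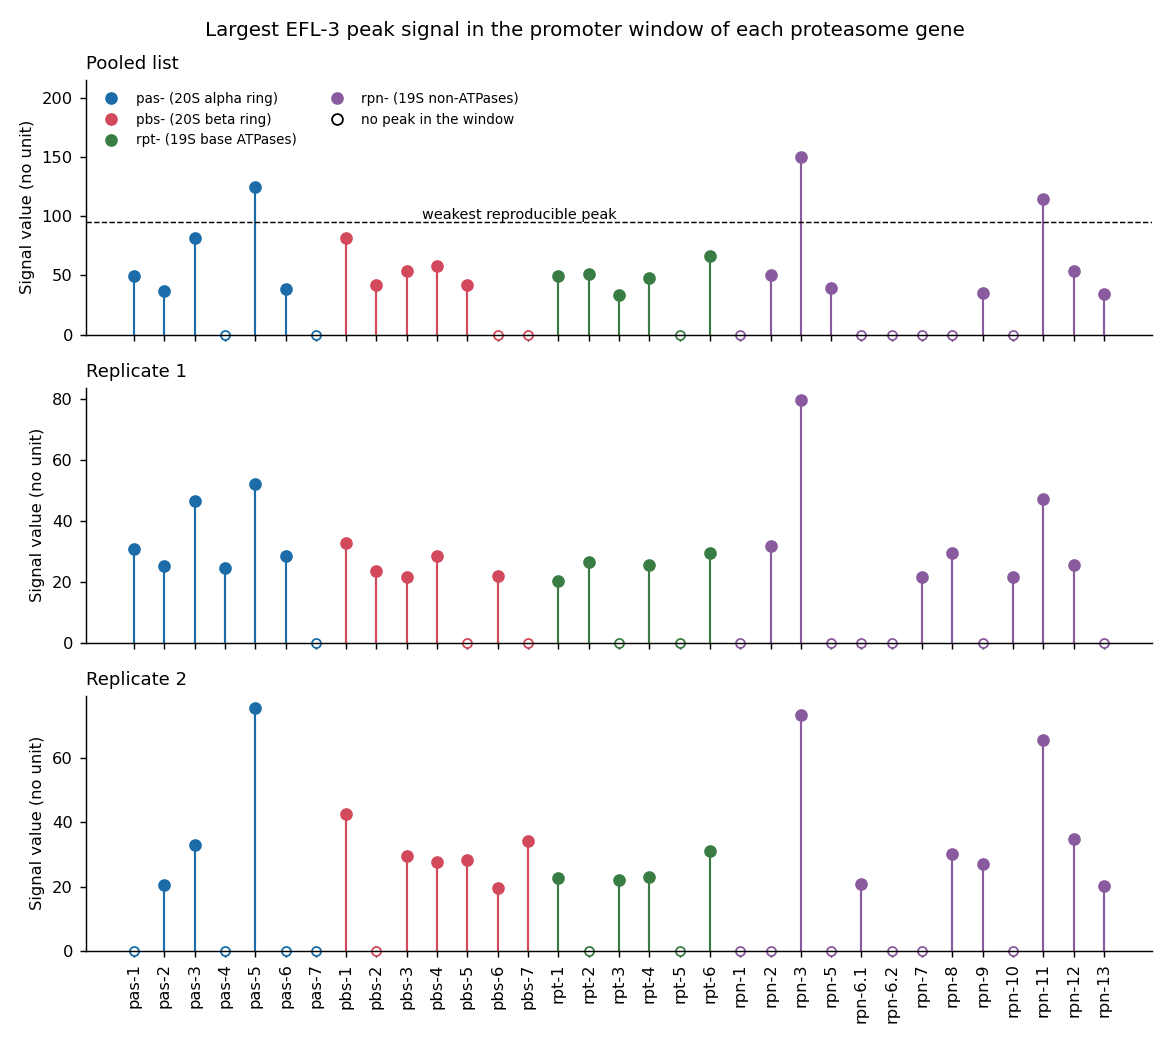
Largest signal value (no unit) in the promoter window of each of the 33 genes, in the pooled list and in replicates 1 and 2, coloured by subunit class, with open circles at 0 for genes without a peak. In the pooled list rpn-3, pas-5 and rpn-11 lie above the dashed line at 94.8, the weakest reproducible peak, and 11 genes have no peak.

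The DNA under 4 of the 6 strongest proteasome summits is printed, that of rpn-3 and rpn-11 because they had 2 of the 3 reproducible peaks, and that of pbs-1 and rpt-6 because theirs were the strongest of the beta ring and ATPase classes. Each line gives 60 bp on either side of the pooled summit on the strand of the gene, in ce11. The capitals mark matches to a CHR element (TTTGAA or TTCGAA) or to a SKN-1 site such as ATTGTCAT or TTTGTCAT, on either strand. The rpt-6 stretch holds neither. The sequences at pas-5 and pas-3 are not shown here.

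rpn-3, chrIII:8447128-8447248, forward strand: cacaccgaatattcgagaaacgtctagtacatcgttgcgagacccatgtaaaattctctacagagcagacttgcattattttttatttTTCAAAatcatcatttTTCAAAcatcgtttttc
rpn-11, chrII:4044509-4044629, reverse strand: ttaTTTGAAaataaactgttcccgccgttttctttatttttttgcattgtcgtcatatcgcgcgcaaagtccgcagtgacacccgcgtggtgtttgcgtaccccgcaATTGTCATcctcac
pbs-1, chrIV:1710008-1710128, reverse strand: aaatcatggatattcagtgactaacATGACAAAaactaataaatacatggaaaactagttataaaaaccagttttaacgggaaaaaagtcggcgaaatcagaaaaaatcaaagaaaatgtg
rpt-6, chrIII:12370437-12370557, forward strand: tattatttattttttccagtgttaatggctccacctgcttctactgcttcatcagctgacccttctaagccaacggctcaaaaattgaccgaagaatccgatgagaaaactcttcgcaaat

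The rpn- class held the strongest peak of the family. The gene rpn-3 (WBGene00004460, 8447353 to 8449346 on chromosome III, forward strand) encodes a subunit of the lid, a part of the regulatory particle. Its largest signal was 149.9 in the pooled list (rank 136), 79.7 in replicate 1 (rank 165) and 73.4 in replicate 2 (rank 141), so it ranked alike in the 3 lists. The pooled summit, at 8447188, was intergenic and 165 bp upstream of the start, and the replicate summits were 16 and 26 bp from it in replicates 1 and 2. The pooled signal was above that of 99.3% of all protein-coding genes. This promoter is shared. The chaperone gene hsp-110 runs the other way, with its start 279 bp from the same summit, and the noncoding RNA gene C30C11.14 has its start 93 bp from it. The peak lists do not say to which of these genes the peak belongs.

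The gene rpn-11 (WBGene00004467, 4043055 to 4044546 on chromosome II, reverse strand) encodes the metalloprotease that removes ubiquitin chains from substrates. Its largest signal was 115 in the pooled list (rank 262), 47.0 in replicate 1 (rank 751) and 65.7 in replicate 2 (rank 191). It was therefore below the 430 strongest peaks in replicate 1 and above that line in replicate 2. The pooled summit at 4044569 was intergenic and 23 bp upstream of the more upstream of 2 annotated starts. The replicate summits lay 27 and 28 bp away from it, and no other protein-coding gene had this summit in its window. The gene K07D4.2, on the same strand, ends 225 bp upstream of rpn-11.

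The remaining rpn- genes had weaker peaks or none, and 7 of the 13 (53.8%) had a pooled summit in all, against 43.7% of all genes. The lid subunit gene rpn-12 had a signal of 53.3 in the pooled list, 25.4 in replicate 1 and 34.9 in replicate 2. Its strongest pooled summit lay 913 bp upstream, in a coding exon of the divergent neighbour rad-23. That gene encodes a shuttle factor that brings ubiquitinated proteins to the proteasome. Replicate 1 had its summit at the same base, and replicate 2 had a summit 7 bp away. The strongest replicate 2 summit of rpn-12 was another one, 1139 bp from that of replicate 1. The base scaffold gene rpn-2 had 50.3 in the pooled list and 31.9 in replicate 1, at summits 10 bp apart, and no peak in replicate 2. The weakest rpn- gene with a pooled peak was rpn-13, a ubiquitin receptor gene, with 34.1 in the pooled list and 20.2 in replicate 2, at summits 6 bp apart, and no peak in replicate 1. The lid genes rpn-5 and rpn-9 had pooled signals of 39.3 and 35.3, and in both cases a neighbour's start was closer to the summit, that of scc-1 (cohesin) for rpn-5 and that of T06D8.9 for rpn-9. No replicate list had a summit in the rpn-5 window, and the nearest summit of replicate 1 was 1584 bp from the pooled one. No pooled summit was in the windows of rpn-1, rpn-6.1, rpn-6.2, rpn-7, rpn-8 and rpn-10.

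Of the 7 alpha ring genes, 5 (71.4%) had a pooled summit, against 43.7% of all genes. The gene pas-5 (WBGene00003926, 10566350 to 10567300 on chromosome I, forward strand) had a signal of 125 in the pooled list (rank 229), 52.1 in replicate 1 (rank 506) and 75.7 in replicate 2 (rank 129). The summits of the replicates were 3 and 5 bp from the pooled summit at 10565469. That summit was intergenic and 881 bp upstream of pas-5, near the far edge of the window. The snoRNA gene F25H2.15 had its start 203 bp from it. This gene spans -1084 to -907 bp from the pas-5 start, so the summit lay just past its end. Among starts of protein-coding genes that of pas-5 was nevertheless the nearest. With a window of 500 bp upstream to 200 bp downstream, pas-5 had no reproducible summit and the count for the family was 2, against 1.49% of all genes.

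The next alpha ring gene, pas-3, had a signal of 81.9 in the pooled list (rank 688), 46.4 in replicate 1 (rank 800) and 33.0 in replicate 2 (rank 3487). It was the strongest proteasome gene below the reproducible threshold of 94.8. Its summit lay in a coding exon, 46 bp downstream of its own start and 202 bp from that of the divergent gene use-1, and the summits of replicates 1 and 2 were 102 and 41 bp from it. The gene pas-1 had 49.6 in the pooled list and 30.9 in replicate 1 and no peak in replicate 2, and pas-6 had 38.6 and 28.3 in these lists, likewise without a peak in replicate 2. The weakest was pas-2, with 36.9 in the pooled list, 25.3 in replicate 1 and 20.4 in replicate 2, where the replicate summits were 1192 bp apart and that of replicate 1 was the one near the pooled summit. No pooled summit was found for pas-4 and pas-7.

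**Figure D2:**
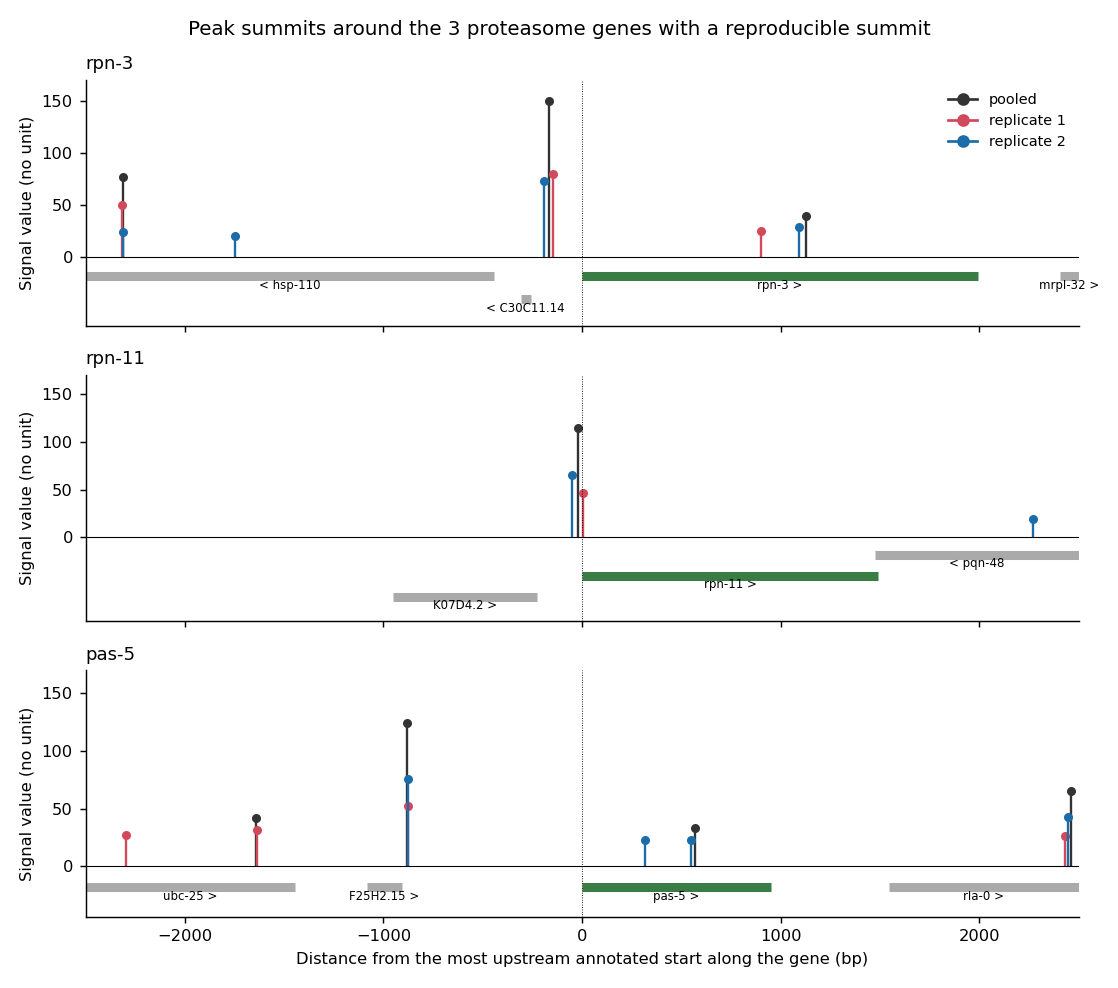
Peak summits in the pooled list and the 2 replicates within 2500 bp of the most upstream start of rpn-3, rpn-11 and pas-5, drawn along the gene with distance in bp and signal value without unit, above the annotated genes (the proteasome gene in green). At each gene the strongest summits of the 3 lists fall within 55 bp of each other, and the pooled ones lie 165 bp (rpn-3), 23 bp (rpn-11) and 881 bp (pas-5) upstream of the start.

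No beta ring gene had a reproducible summit, and 5 of the 7 (71.4%) had a pooled one, against 43.7% of all genes. Since only 1.94% of all genes had a reproducible summit, a count of 0 among 7 genes does not set the class apart. The strongest was pbs-1, a subunit whose human counterpart carries a proteolytic site, with a signal of 81.5 in the pooled list (rank 695), 32.9 in replicate 1 (rank 4116) and 42.7 in replicate 2 (rank 845). Its intergenic summit lay 323 bp upstream, but nearer, at 197 bp, to the divergent gene K08D12.3, and the summits of replicates 1 and 2 were 43 and 25 bp from it. The gene pbs-4 had 57.9 in the pooled list, 28.4 in replicate 1 and 27.7 in replicate 2, at a pooled summit 746 bp upstream with those of replicates 1 and 2 at 3 and 72 bp from it. The gene pbs-3 had 53.8 in the pooled list, 21.6 in replicate 1 and 29.4 in replicate 2, in a coding exon 81 bp downstream of its start, with the summits of replicates 1 and 2 at 5 and 28 bp from the pooled one. The other subunits with proteolytic counterparts in human were weaker. For pbs-5 the signal was 41.8 in the pooled list and 28.2 in replicate 2, without a peak in replicate 1, and for pbs-2, the weakest with a pooled peak, it was 41.7 in the pooled list and 23.7 in replicate 1, at summits 15 bp apart, without a peak in replicate 2. No pooled summit was in the windows of pbs-6 and pbs-7.

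The 6 base ATPase genes also had no reproducible summit, which at 1.94% of all genes does not set them apart either. A pooled one was present for 5 of the 6 (83.3%), against 43.7% of all genes. All 6 subunits belong to the ring that unfolds substrates and feeds them into the core. The strongest, rpt-6, had a signal of 66.4 in the pooled list (rank 1776), 29.5 in replicate 1 (rank 6876) and 31.0 in replicate 2 (rank 4821), at a pooled summit in its coding sequence 41 bp downstream of the start. Replicate 1 had its summit at the same base and replicate 2 117 bp away. The gene rpt-2 had 51.1 in the pooled list and 26.5 in replicate 1, at summits 1 bp apart, with no peak in replicate 2. The gene rpt-1 had 49.7 in the pooled list, 20.3 in replicate 1 and 22.8 in replicate 2, with the replicate summits 564 and 177 bp from the pooled one and 741 bp from each other. The gene rpt-4 had 48.0 in the pooled list, 25.5 in replicate 1 and 22.9 in replicate 2. The strongest replicate 2 summit was 4 bp from the pooled one, and that of replicate 1 was 2387 bp from that of replicate 2, at the other of 2 annotated starts. Replicate 1 also had a weaker summit 129 bp from the pooled one. The strongest rpt-4 summit was in introns of both rpt-4 and nfyc-1, and only 49 bp from the start of nfyc-1. The weakest was rpt-3, with 33.9 in the pooled list and 22.2 in replicate 2, at summits 128 bp apart, and no peak in replicate 1. The gene rpt-5 had no peak in any list.

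**Figure D3:**
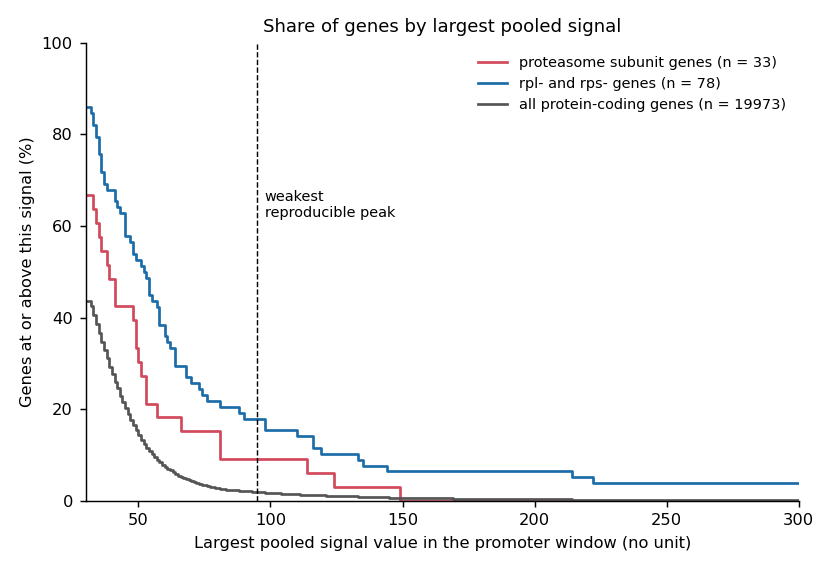
Percent of genes whose largest pooled signal value (no unit, x axis) is at or above a given value, for the 33 proteasome subunit genes, the 78 rpl- and rps- genes and all 19973 protein-coding genes. At the dashed line, the weakest reproducible peak, the shares are 9.09%, 17.9% and 1.94%.

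In the pooled list the 3 reproducible genes had the lowest q-values of the family, computed from the deposited −log10 values. The reproducible set is the top of that list by signal, and the q-values score the same peaks. Their low values are therefore no separate support. There rpn-3 had a q-value of 0.0185, pas-5 of 0.0241 and rpn-11 of 0.0554, so that 2 of the 22 genes with a pooled summit were below 0.05 and 3 below 0.1. The shares of all genes below these values were not counted. The next were pas-3 with 0.424 and pbs-1 with 0.438, and rpt-6 had 0.789. In replicate 1 the q-value was 0.0152 for rpn-3, 0.134 for pas-5 and 0.251 for rpn-11, and pas-3, which was not reproducible, had nearly the same value as rpn-11 (0.256). In replicate 2 it was 0.0320 for rpn-3, 0.0350 for pas-5 and 0.0446 for rpn-11, and pbs-1 was next with 0.472.

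The replicates gave similar numbers of proteasome genes with a relaxed peak but not the same genes throughout. A summit was in the window of 22 genes (66.7%) in replicate 1, against 44.1% of all genes, and of 20 (60.6%) in replicate 2, against 44.8% of all genes. Peaks in the pooled list and in both replicates were found for 12 genes (36.4%), against 25.1% of all genes. Replicate 1 alone had a summit for 8 genes, replicate 2 alone for 6, and neither for 5. The shares of all genes in these groups are not given here. A window can hold different peaks in the replicates, however. Of the 14 genes with a summit in both replicates, 6 had their strongest replicate summits within 100 bp of each other, namely rpn-3, rpn-11, pas-5, pbs-1, pbs-3 and pbs-4. For 6 others they were more than 500 bp apart, namely rpt-1, rpt-4, rpn-12, pas-2, rpn-8 and pbs-6. Such distances were not counted over all genes, so they are not read as a trait of the proteasome genes. The lid gene rpn-8 had signals of 29.6 in replicate 1 and 30.3 in replicate 2 at sites 966 bp apart and no pooled summit. The gene pbs-6 had 21.9 in replicate 1 and 19.6 in replicate 2 at sites 716 bp apart. Around the pooled summits, 7 of the 22 genes had a summit of each replicate within 100 bp, which is 21.2% of the 33 proteasome genes, against 14.3% of all genes. Among the 7 was rpn-12, through a replicate 2 summit 7 bp from the pooled one that was not its strongest.

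Of the 11 genes without a pooled summit, 7 had a peak in a replicate, with signals between 19.6 and 34.2. The other 4, pas-7, rpt-5, rpn-1 and rpn-6.2, had none in any list (12.1% of the 33, against 37.05% of all genes). Some of the 11 had a pooled summit not far past the window. On the upstream side, where the window ends at 1000 bp, rpn-6.2 had one at -1084 bp from the start (signal 54.8). There rpn-10 had one at -1168 bp (34.8). On the downstream side, where it ends at 500 bp, rpn-8 had one at 741 bp (55.6) and rpt-5 at 780 bp (40.9).

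Over the 14 genes the signals of the replicates were correlated across genes (Spearman rho = 0.842), and over the 11 left without rpn-3, pas-5 and rpn-11 rho was 0.682. These are descriptions, since genes are not independent replicates and a common control alignment underlies both lists. Outside these 14, the gene pbs-7 had a signal of 34.2 (rank 2864) in replicate 2 and no peak in replicate 1 or the pooled list.

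**Figure D4:**
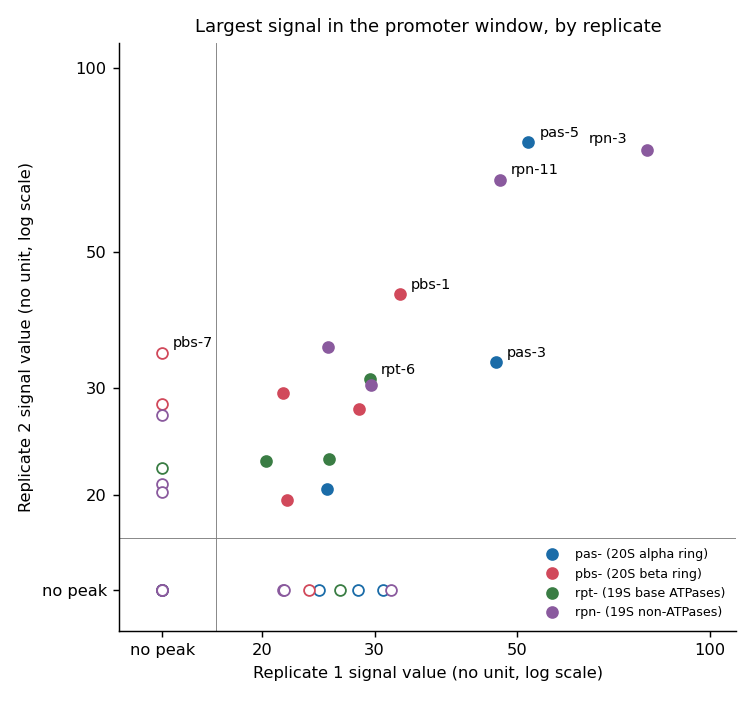
Largest signal value in the promoter window in replicate 1 and replicate 2 (no unit, log scales), coloured by subunit class, with open circles in the margins for genes without a peak in a replicate. The 3 reproducible genes lie at the upper right, and the 5 genes without a peak in either replicate fall on 1 point at the lower left.

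The summits were not gathered at a fixed place in the promoters. Of the 22 strongest pooled summits, 13 were upstream of the nearest start of their gene (59.1%, against 62.1% of the strongest summits of all genes). The median distance from the start was 296 bp, against 305 bp over all genes, and 9 of the 22 (40.9%) were within 250 bp, against 42.2% of all genes. In position the summits were thus close to those of other genes. The share of G and C within 100 bp of the 22 summits had a median of 43.3% (from 32.3% to 55.7%). It was 39.8% over all promoter-window summits, which are not only the strongest of each gene. In 8 cases the summit was in a coding exon of the proteasome gene itself, among them pas-3, pbs-3 and rpt-6, and in 4 it was in a coding exon of a neighbour. Another 7 summits were intergenic, including those of rpn-3, rpn-11, pas-5 and pbs-1, and 3 were in introns. Shares by kind of place were not counted over all genes, so these counts do not set the proteasome summits apart.

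Many proteasome genes share their upstream region with a neighbour. The nearest protein-coding gene upstream of it and not overlapping it was on the opposite strand and within 1000 bp for 20 of the 33 (60.6%), against 17.5% of all genes. Of these 20, 11 had a pooled summit, as did 11 of the other 13. Over all genes the share was 43.7%, and it is not given here by the strand of the neighbour. A link between such a neighbour and a summit was not tested. For 9 of the 33 the upstream neighbour was on the same strand and within 1000 bp, against 28.5% of all genes. The strongest pooled summit was nearest to the gene's own start for 15 of the 22 (68.2%), against 85.1% of all genes with a pooled summit. For 8 of the 22 (36.4%) it was also in the window of another protein-coding gene, against 26.4%. For pas-2, pbs-1, pbs-2, rpt-4, rpn-5, rpn-9 and rpn-12 the neighbour's start was the nearer.

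**Figure D5:**
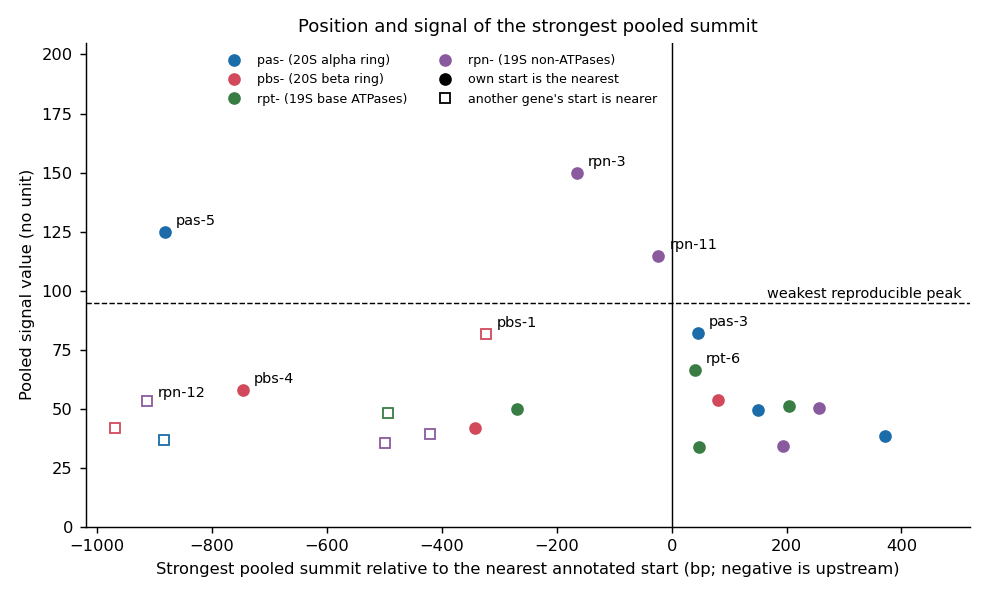
Strongest pooled summit of the 22 proteasome genes with a pooled peak, by distance in bp from the nearest annotated start (negative is upstream) and signal value (no unit). Filled circles mark genes whose own start is the nearest and open squares those with another gene's start nearer. The dashed line is the weakest reproducible peak, at 94.8, with rpn-3, pas-5 and rpn-11 above it.

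The E2F consensus, searched on both strands as TTTCCCGC, TTTCGCGC, TTTGCCGC and TTTGGCGC, was found within 100 bp of none of the 22 strongest pooled summits, and at 4.07% of the 10389 pooled summits in promoter windows of all genes. For this and the other motifs, the 10389 are all such summits, not only the strongest of each gene. In the 300 bases from 250 before to 50 after the most upstream start it was present for 2 of the 33 genes (6.06%), pas-3 and rpn-8, against 4.69% of all promoters. At pas-3 the match lay 179 bp upstream of the summit. The SP1-like sequence CCGCCC and the E-box CACGTG were also at 0 of the 22 summits, against 5.87% and 4.84% of all promoter summits. The GAGA repeat GAGAGA was at 2 (9.09%), pas-3 and rpt-3, against 15.2%. The CHR element, searched as TTTGAA and TTCGAA, was at 9 of 22 (40.9%), against 44.4%. The printed rpn-3 stretch holds it 2 times and the printed rpn-11 stretch once.

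The SKN-1 site was searched as AATATCAT, AATGTCAT, ATTATCAT, ATTGTCAT, TATATCAT, TATGTCAT, TTTATCAT and TTTGTCAT. It was within 100 bp of 2 of the 22 summits (9.09%), those of pbs-1 and rpn-11, against 8.10% of all promoter summits. In the 300-base promoters it was present for 11 of the 33 genes (33.3%), against 16.5% of all promoters, and the CHR element for 29 (87.9%), against 68.9%. The 11 were pas-2, pas-6, pbs-1, pbs-6, rpt-2, rpt-6, rpn-2, rpn-5, rpn-8, rpn-11 and rpn-12. The promoter counts describe sequence only and use no peak. Motif matches are letters in a window, and binding to them was not measured.

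Partners of the proteasome had similar counts. Of 45 listed genes for ubiquitin, its enzymes and proteasome cofactors, 42 were found in the annotation. Of these, 3 (7.14%) had a reproducible summit, against 1.94% of all genes. The strongest was cdc-48.1, which encodes the ATPase that extracts ubiquitinated proteins for degradation, with 228 in the pooled list, 128 in replicate 1 and 98.0 in replicate 2. The ubiquitin ligase gene eel-1 had 116 in the pooled list, 63.5 in replicate 1 and 58.5 in replicate 2. The shuttle factor gene ubql-1 had 108 in the pooled list, 63.4 in replicate 1 and 41.4 in replicate 2. A pooled summit was in the window of 27 of the 42 (64.3%), against 43.7% of all genes. The gene skn-1 had 48.4 in the pooled list, 27.4 in replicate 1 and 28.9 in replicate 2. Its activators png-1 and ddi-1 had no peak in any list, nor had dss-1, whose product is a small lid subunit outside the rule on names.

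The COP9 signalosome and the translation factor eIF3 are complexes that include subunits related to those of the lid. Their genes were listed by complex, so not every listed gene, eif-3.B among them, encodes a lid-related subunit. A reproducible summit was found for 2 of the 17 genes (11.8%). These were eif-3.C (172 in the pooled list, 91.2 in replicate 1 and 77.9 in replicate 2) and eif-3.B (135, 76.3 and 55.5 in the same lists). A pooled summit was present for 14 of the 17 (82.4%). Of all genes, 1.94% had a reproducible summit and 43.7% a pooled one. Of the 8 genes of the cytosolic chaperonin (cct-), 2 (25%) had a reproducible summit and 6 (75%) a pooled one. The cytosolic ribosomal protein genes had a reproducible summit for 14 of 78 (17.9%), against 9.09% of the proteasome genes, and a pooled one for 67 (85.9%). Their median largest signal was 52.7, which lies above the proteasome median of 39.3 in the same list. No test was made between these lists, and peaks or genes are not replicates of the worm cultures.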

How the data were processed

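The deposited peak lists comprised 1 for each replicate, 1 for the pooled replicates and 1 thresholded by the irreproducible discovery rate, with 1 control alignment behind all of them, as the deposited file descriptions state. The authors' signal value, a −log10 q-value and the summit offset were taken from each list as deposited. Aligner, peak caller and thresholds were not given in the sources used here. Control reads were not analysed here, and depth is unknown. Gene models were those of Ensembl for WBcel235, the assembly of ce11, with the RefSeq copy of the same genome for sequence, and no peak ended beyond its chromosome. Summits were assigned to promoter windows with Python 3.11.15, and the assignment was tested on simulated data. Each gene's value is its largest signal, or 0. Signals in the 3 lists are printed for genes with a reproducible summit, the 12 largest pooled signals and the strongest and weakest of each class. Other genes were named after their values were seen. The genes, lists and motifs were chosen with earlier results of these data known. With 1 group no test was made. Alternatives changed the window, the start, the replicate, the threshold, the matching distance and the motif flank.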

Additional observations from a re-analysis of the deposited data

How the results depend on the processing

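Of the settings tried, the following moved a count by more than 1.5 times or shifted the median. Leaving out a replicate gave 1 to 3 proteasome genes with a strong summit, the 1 coming from replicate 1 alone, and 1 gene was counted (3.03%, against 1.12% of all genes) when the reproducible summit also had to be among the 430 strongest peaks of each replicate. Peaks in all 3 lists were found for 7 genes with the window of 500 bp upstream to 200 bp downstream (21.2%, against 12.7% of all genes), and for 7 with replicate summits within 100 bp of the pooled one (21.2%, against 14.3%). The median largest signal was 0 in that narrower window (where 16 genes had a pooled summit, against 26.2% of all genes), 41.8 with 2000 bp upstream, and 41.7 with any overlap of the peak interval. In a single replicate it ran from 20.8 to 23.7, on the scale of that list. The E2F consensus was at 1 summit, that of pas-3, within 200 bp. The cause of these shifts was not tested, except that a narrower window holds fewer summits by construction. Read depth, which limits how weak a peak can be found, is unknown.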
